A study of Homo sapiens with 28 samples.

Results

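Untreated CTCF-AID2 cells were compared with untreated wild-type SEM cells (WT), as the 4 CTCF-AID2 libraries and the 2 WT libraries of the 24 h set that received no auxin, 6 of the 28 RNA-seq libraries of the series. SEM is a human B-cell acute lymphoblastic leukemia line with an MLL-AF4 fusion, and the series used degrons to remove the chromatin protein CTCF and asked what its domains do for transcription. The comparison sets the tagged line beside its parental line before any CTCF was removed, although library processing differed along with the line. CTCF-AID2 cells carry CTCF fused at its own gene to a miniAID degron and mClover3, a doxycycline-inducible OsTIR1 in the AAVS1 locus, which lies in PPP1R12C, and a lentiviral OsTIR1(F74G)-P2A-EGFP driven by an MND promoter. WT cells carry none of these. The study's methods describe CTCF-AID2 cells as made from an earlier tagged SEM line, so the values are those of 1 engineered line against its parent. The labels give no auxin to both groups, and the methods name DMSO as the vehicle.

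CTCF binds DNA and stops cohesin, which holds chromatin loops in place. In the degron system an F-box protein from rice, OsTIR1, joins the SCF ubiquitin ligase of the cell and, once an auxin is present, hands the tagged protein to the proteasome. The cells of an engineered line descend from those that survived selection and share what these carried, so a tagged line is compared with its parent before the degron is used. In RNA-seq tables reads from near-identical gene copies are divided between genes by the counting program, and that division depends on the reference and settings used.

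Total counts were 49.3 to 59.8 M per library in CTCF-AID2 cells and 51.1 to 53.1 M in WT cells. The libraries differed in how reads had been divided: 17.9 to 19.5% of the genes with a count held a count that was not a whole number in CTCF-AID2 libraries, against 7.10 to 7.29% in WT libraries. In the 6 h set, made from lines derived from CTCF-AID2 cells, the share was 16.8 to 18.6%. Of all counts, 10.8 to 11.5% in CTCF-AID2 libraries and 8.84 to 10.9% in WT libraries fell on RN7SK and RN7SL genes. Line and library preparation or processing therefore changed together, and their parts in a difference cannot be told apart from the groups alone. What could be measured was which differences lay in repeated sequence, in reads that were divided between genes, in 1 chromosomal interval or in single-copy genes. Whether each library had its own culture is not in the labels, so every p-value refers to a spread that may be technical, and intervals on counts cover counting error only.

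The exons of the tested genes were cut into windows of 76 bases, and each was searched for on both strands of GRCh37. The windows below show both kinds of gene that the results turn on. The first 2 come from families whose copies cannot be separated by a stretch of that length, and the last 3 from coding exons that occur once, in genes with large differences between the lines. No base is in capitals because each whole window was the unit searched.
RNU1-1: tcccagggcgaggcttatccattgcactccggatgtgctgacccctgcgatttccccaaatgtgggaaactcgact
HIST2H3A: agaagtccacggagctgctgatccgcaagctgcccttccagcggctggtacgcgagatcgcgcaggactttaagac
PPP1R18: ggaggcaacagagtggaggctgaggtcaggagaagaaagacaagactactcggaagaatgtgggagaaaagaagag
ZBTB33: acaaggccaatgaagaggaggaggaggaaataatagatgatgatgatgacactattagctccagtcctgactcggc
DOCK1: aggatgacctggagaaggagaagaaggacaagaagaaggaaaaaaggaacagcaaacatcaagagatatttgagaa
The RNU1-1 window (GRCh37 chr1:16840661-16840736, minus strand, in the only exon of a U1 small nuclear RNA gene) occurred at 9 places, 7 on chromosome 1 and 2 on chromosome 14. The HIST2H3A window (chr1:149824383-149824458, plus strand, in the single coding exon of a histone H3 gene) occurred at 2 places. The PPP1R18 window (chr6:30652953-30653028, minus strand), the ZBTB33 window (chrX:119388241-119388316, plus strand) and the DOCK1 window (chr10:129237353-129237428, plus strand) each occurred at 1 place.

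Of 13973 genes tested, 893 were higher in CTCF-AID2 cells than in WT cells and 470 were lower, called where the limma adjusted p was 0.05 or less and the lines differed 2-fold or more. These are 6.39% and 3.36% of the genes tested, 9.75% together, and the median log2 fold change over all of them was 0.01. Without the limit on fold change 9859 genes (70.6%) passed. CTCF itself had 149, 151, 143 and 147 CPM, the count of a gene scaled to the size of its library, in the CTCF-AID2 libraries, against 149 and 149 CPM in the WT libraries. The groups overlapped, and the log2 fold change was -0.02 ± 0.03 (SE, limma adjusted p = 0.652). The counts reach the tagged transcript as well as an untagged one, so they show the level of CTCF RNA and not that of the protein. PPP1R12C, the gene that holds the AAVS1 insertion site, had 62.9 to 65.5 CPM in CTCF-AID2 cells, against 46.2 and 41.3 CPM in WT cells (log2 0.55 ± 0.06, limma adjusted p = 2.04e-06), a change that did not reach 2-fold. Its direction turned after the GC adjustment described below (log2 -0.16).

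A single-copy set was used to describe genes apart from repeated sequence. It held the 4914 tested genes with no repeated window, only whole counts in the 6 libraries, no overlap with another gene, no multicopy biotype and a position outside the major histocompatibility complex (MHC). In it 206 genes (4.19%) were higher in CTCF-AID2 cells and 153 (3.11%) lower, against 6.39% and 3.36% of all genes.

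The clearest losses were genes at or near 0 in CTCF-AID2 cells. Of all genes tested, 72 (0.515%) had a mean of at least 1 CPM in WT cells and under 0.1 CPM in CTCF-AID2 cells, and 36 of these were protein-coding and 19 belonged to the single-copy set. DOCK1, a guanine nucleotide exchange factor that activates RAC for migration and engulfment, had 0 CPM in all 4 CTCF-AID2 libraries, against 24.5 and 24.5 CPM in the WT libraries. That was 0 of its reads in CTCF-AID2 cells and 2567 in WT cells, which with a floor of 3 counts over the group made it at least 1789-fold lower in CTCF-AID2 cells. It held 0 counts in 23 of the 24 libraries of the series whose cells carry the degron, and 3 in the other one. DOCK1 lies at GRCh37 chr10:128593978-129250781 on the plus strand and has no repeated window.

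DYNLT3, a light chain of the dynein motor on the X chromosome, had 0.0188, 0, 0 and 0 CPM in CTCF-AID2 cells, against 18.7 and 16.8 CPM in WT cells. Its 1 read in CTCF-AID2 cells and 1861 in WT cells gave a ratio of WT to CTCF-AID2 of 3892 (exact 95% interval 698 to 153795), and 23 of the 24 degron libraries held none. OAT, which encodes ornithine aminotransferase of the mitochondrion, had 0 CPM in all 4 CTCF-AID2 libraries, against 8.97 and 8.53 CPM in WT libraries, at least 639-fold lower. OAT has near copies elsewhere (1.01% of its windows were repeated) and is not in the single-copy set. DOCK1 and OAT both lie on 10q, and the median log2 difference of 10q from untreated WT, after the adjustment for base composition described below, was -0.03 to -0.02 in the 4 CTCF-AID2 libraries.

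Other genes near silent in CTCF-AID2 cells had varied roles. TLR2, a receptor for bacterial lipoproteins, had 0 CPM in all CTCF-AID2 libraries, against 3.45 and 3.98 CPM in WT libraries (at least 270-fold lower). IL13RA1, a chain of the interleukin 13 receptor, had 3 reads in CTCF-AID2 cells and 406 in WT cells, a WT to CTCF-AID2 ratio of 283 (exact 95% interval 96.2 to 1378). TOM1L1, an adaptor of endosomal sorting, was at 0 CPM in every CTCF-AID2 library, against 3.75 and 3.58 CPM in WT libraries (at least 268-fold lower). UBE2D4, a ubiquitin-conjugating enzyme, had 1 read in CTCF-AID2 cells and 380 in WT cells. SPR, which makes the cofactor tetrahydrobiopterin, had 0 reads in CTCF-AID2 cells and 111 in WT cells, and 0 in all 24 degron libraries. The scaffold ARRB1 had 6 reads in CTCF-AID2 cells and 127 in WT cells, the adhesion protein CDH11 2 and 143, and the peroxidase GPX7 9 and 327.

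Promoters rich in CG pairs are typical of widely expressed genes. DNA methylation, which falls on such pairs, was not measured. The promoters of the 3 genes with the highest WT level among those named above are shown because each carries many such pairs. They run from 250 bases before to 50 bases after the start of transcription (RefSeq, GRCh38.p14), with every CG in capitals.
DOCK1: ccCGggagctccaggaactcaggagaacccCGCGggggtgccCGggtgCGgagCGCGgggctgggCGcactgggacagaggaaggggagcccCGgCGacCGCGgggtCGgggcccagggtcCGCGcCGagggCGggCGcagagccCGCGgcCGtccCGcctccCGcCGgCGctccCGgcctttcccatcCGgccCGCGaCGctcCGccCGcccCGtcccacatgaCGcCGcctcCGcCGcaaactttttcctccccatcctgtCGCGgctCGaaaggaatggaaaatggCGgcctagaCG
DYNLT3: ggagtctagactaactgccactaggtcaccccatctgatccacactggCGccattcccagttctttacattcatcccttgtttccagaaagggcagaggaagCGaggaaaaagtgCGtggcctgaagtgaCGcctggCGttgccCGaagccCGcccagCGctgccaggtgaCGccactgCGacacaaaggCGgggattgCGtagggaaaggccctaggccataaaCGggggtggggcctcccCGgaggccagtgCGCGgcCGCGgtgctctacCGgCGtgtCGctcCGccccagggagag
OAT: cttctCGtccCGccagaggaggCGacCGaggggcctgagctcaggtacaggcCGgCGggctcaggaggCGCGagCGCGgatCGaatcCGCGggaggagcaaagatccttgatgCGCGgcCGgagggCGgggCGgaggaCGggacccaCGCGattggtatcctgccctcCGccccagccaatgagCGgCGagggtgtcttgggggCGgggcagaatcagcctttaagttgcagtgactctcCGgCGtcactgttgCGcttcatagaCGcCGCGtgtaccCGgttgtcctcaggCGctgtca
DOCK1 (chr10:126905178-126905477, plus strand) has 42 CG pairs in this window, DYNLT3 (chrX:37847522-37847821, minus strand) has 22, and OAT (chr10:124418874-124419173, minus strand) has 33. Such promoters are common. The letters CG were counted once per position, since they read the same on both strands, and among 8879 tested protein-coding genes with a promoter sequence the median was 26 and 83.2% had at least 15. Of the 16 protein-coding genes of the single-copy set that were on in WT cells and near silent in CTCF-AID2 cells and had a promoter sequence, 14 (87.5%) had at least 15, and their median was 30.5. The share was close to the background.

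Other single-copy genes stayed on in CTCF-AID2 cells at a fraction of their WT level. VCAN, a large matrix proteoglycan, had 7.40, 7.77, 7.13 and 8.20 CPM in CTCF-AID2 cells, against 60.6 and 65.3 CPM in WT cells (log2 -3.04 ± 0.06, limma adjusted p = 9.32e-14). SDC2, a heparan sulfate proteoglycan of the cell surface, had 12.3 to 14.4 CPM in CTCF-AID2 cells, against 74.6 and 72.3 CPM in WT cells (log2 -2.44 ± 0.05). DPYSL3, a cytoskeletal regulator best known from neurons, averaged 16.7 ± 0.35 CPM in CTCF-AID2 cells and 77.7 ± 0.41 CPM in WT cells (SD, n = 4 and 2; log2 -2.22 ± 0.04). In all 3 genes every CTCF-AID2 library lay far below both WT libraries, and so did the 8 untreated libraries of the 6 h set, at 5.02 to 6.75, 6.76 to 10.6 and 19.8 to 23.3 CPM. FSTL1, a secreted glycoprotein, averaged 1.94 ± 0.28 CPM in CTCF-AID2 cells and 11.3 ± 0.81 CPM in WT cells (SD, n = 4 and 2). The effective length is the length that the counting program gave a gene, with its isoforms weighted and the length of the sequenced fragments allowed for. It was 0.55 log2 units shorter in CTCF-AID2 libraries for VCAN and 0.34 shorter for SDC2. Such a shift can come with other isoforms or with other fragment lengths, and these were not told apart. SCARNA12, a gene with 1 exon, shifted by 0.31 log2 units as well.

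Some called genes of the cell surface and of signaling, picked after their values were seen, are given next. TLR10, a Toll-like receptor found mainly on B cells, had 4.70, 4.93, 5.46 and 4.33 CPM in CTCF-AID2 cells, against 27.9 and 28.1 CPM in WT cells (log2 -2.54 ± 0.09, limma adjusted p = 1.85e-11). CD86, a costimulatory ligand for T cells, averaged 3.39 ± 0.28 CPM in CTCF-AID2 cells and 11.3 ± 0.21 CPM in WT cells (SD, n = 4 and 2). CD70, the ligand of the costimulatory receptor CD27, was higher: 6.09, 5.78, 6.70 and 6.34 CPM in CTCF-AID2 cells, against 0.613 and 0.551 CPM in WT cells (log2 3.39 ± 0.18, limma adjusted p = 1.45e-09). CD69, an early activation marker, had 7.97 to 8.68 CPM in CTCF-AID2 cells, against 1.04 and 1.04 CPM in WT cells (log2 2.98 ± 0.15). S100A6, a calcium-binding protein, had 5.36 to 6.31 CPM in CTCF-AID2 cells, against 27.4 and 25.4 CPM in WT cells (log2 -2.17 ± 0.07). In each of these 5 genes the lines did not overlap, and all 8 untreated libraries of the 6 h set lay on the side of CTCF-AID2 cells.

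**Figure D1:**
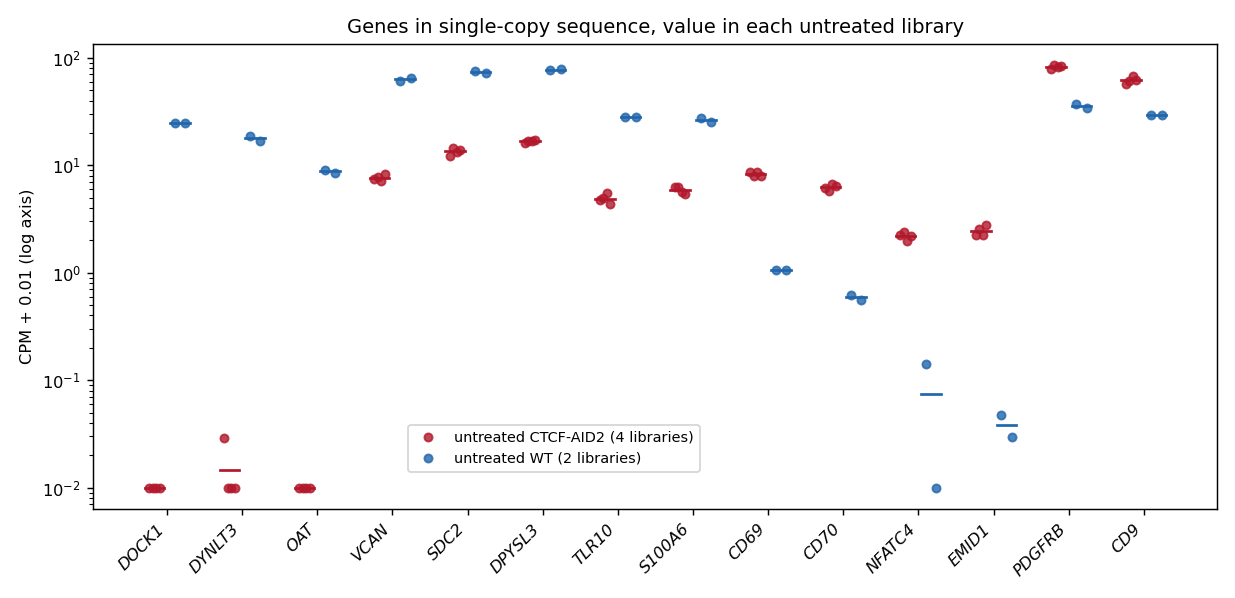
CPM on a log axis (0.01 added) of 14 genes in each of the 4 untreated CTCF-AID2 and the 2 untreated WT libraries; each point is 1 library. The points of a line lie close together and those of the 2 lines apart, from DOCK1, at 0 in CTCF-AID2 cells and 24.5 CPM in WT cells, to CD9, at 57.5 to 68.0 CPM in CTCF-AID2 cells and 29.2 CPM in WT cells.

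Genes that were on in CTCF-AID2 cells and near silent in WT cells numbered 57 (0.408% of the genes tested). Only 15 were protein-coding and 4 were in the single-copy set, and 40 held divided counts. The single-copy set asked for whole counts in all 6 libraries, and a count of 0 is whole. Divided counts were more frequent in CTCF-AID2 libraries, so genes silent in these cells entered the set more easily. The 4 genes here and the 19 lost ones therefore cannot be compared. Several 5S and U1 RNA entries among the 57 held equal values, so the 57 are not all separate genes. The 4 single-copy genes were GSPT2, EMID1, NFATC4 and RAB33A. GSPT2, an intronless relative of the translation termination factor GSPT1, had 16.3, 16.3, 18.3 and 16.7 CPM in CTCF-AID2 cells, against 0 and 0 CPM in WT cells, at least 582-fold higher in CTCF-AID2 cells. Its sum was 3654 reads in CTCF-AID2 cells and 0 in WT cells, and no window of it was repeated. EMID1, a secreted protein with an EMI domain, had 531 reads in CTCF-AID2 cells and 3 in WT cells, a ratio of 84.6 (exact 95% interval 28.8 to 412). NFATC4, a calcium-responsive transcription factor, had 1.98 to 2.40 CPM in CTCF-AID2 cells, against 0.130 and 0 CPM in WT cells. RAB33A, a small GTPase, had 1.63 to 1.96 CPM in CTCF-AID2 cells, against 0.0929 and 0.0394 CPM in WT cells.

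The X chromosome, which carries GSPT2 and RAB33A as well as DYNLT3 and IL13RA1, held a larger share of genes called higher than any autosome outside the MHC, a feature looked at after the values were seen. Of its 443 tested genes 62 (14.0%) were higher in CTCF-AID2 cells and 18 (4.06%) lower, with a median log2 fold change of -0.02. On the autosomes outside the MHC 5.47% were higher, and the share ran from 2.52% on chromosome 13 to 9.28% on chromosome 16. In the single-copy set 25 of 178 X-linked genes (14.0%) were higher and 9 (5.06%) lower, against 3.82% and 3.04% of 4733 autosomal genes. Among single autosomes the share reached 10.6% higher on chromosome 19 before the GC adjustment described below, and 3.86% on chromosome 7 after it. The chromosome as a whole was therefore not shifted, while individual genes were. All 25 of the higher genes had the 8 untreated 6 h libraries on the side of CTCF-AID2 cells, and 23 of them were also called higher between the treated cells of the 2 lines.

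ZBTB33, which encodes the methyl-CpG binding protein Kaiso, had 72.3, 75.8, 75.4 and 74.1 CPM in CTCF-AID2 cells, against 4.51 and 4.88 CPM in WT cells (log2 3.98 ± 0.11, limma adjusted p = 1.14e-12). VBP1, a subunit of the prefoldin chaperone, averaged 61.2 ± 1.27 CPM in CTCF-AID2 cells and 14.4 ± 4.80 CPM in WT cells (SD, n = 4 and 2; log2 2.13 ± 0.11). EBP, a sterol isomerase of cholesterol synthesis, had 87.4 to 93.0 CPM in CTCF-AID2 cells, against 26.3 and 25.5 CPM in WT cells (log2 1.79 ± 0.06). The effective lengths of these 3 genes differed by at most 0.06 log2 units between the lines. FAM199X, whose function is not well known, averaged 66.1 CPM in CTCF-AID2 cells and 12.6 CPM in WT cells, and the kinase PIM2 averaged 12.6 CPM in CTCF-AID2 cells and 3.07 CPM in WT cells. In 10 of the 25 genes, among them TFE3, FMR1 and TBC1D25, the effective length differed by more than 0.3 log2 units, and in 6 it could not be computed. Where the effective length differed, the level changed together with it, and isoforms and fragment lengths were not told apart. Among the 9 lower X-linked genes, PBDC1 averaged 0.516 CPM in CTCF-AID2 cells and 14.7 CPM in WT cells (log2 -4.82).

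The list of CTCF, cohesin and loop factors had 0 of 20 members called, with a median log2 fold change of -0.19, and the list of SCF ligase genes with PPP1R12C had 0 of 9. Genes of the B-cell precursor program stayed mostly at the WT level, with 1 of 32 (3.12%) higher and 3 (9.38%) lower and a median of 0.09, against 6.39% and 3.36% of all genes. After the GC adjustment 0 were higher and 1 lower, since CD9, TCF4 and RAG2 fell below 2-fold. Its called members were CD9, a tetraspanin, at 57.5 to 68.0 CPM in CTCF-AID2 cells against 29.2 and 29.2 CPM in WT cells, TLR10, and 2 lower genes near the threshold. TCF4, a B-lineage E protein, had 10.7 to 11.6 CPM in CTCF-AID2 cells, against 24.98 and 24.95 CPM in WT cells. RAG2, a subunit of the recombinase that joins receptor gene segments, averaged 3.07 ± 0.24 CPM in CTCF-AID2 cells and 6.70 ± 0.13 CPM in WT cells (SD, n = 4 and 2). None of 33 MLL-AF4 targets was called (median -0.03), nor any of 47 G1 and S phase genes (median -0.25), 53 G2 and M phase genes (median -0.12), 36 genes of the amino acid response (median 0.14) or 4 cancer-testis genes. Summed levels of the T and NK markers were 136 to 138 CPM in CTCF-AID2 cells and 90.3 to 91.1 CPM in WT cells, and 0 of the 3 members tested were called.

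Single members of other lists were called, against 6.39% higher and 3.36% lower over all genes. Of 39 interferon-stimulated genes 3 (7.69%) were higher and 2 (5.13%) lower, a share near the background. Of 24 immediate early genes 3 (12.5%) were higher and 1 lower, and of 13 NF-kB genes 2 (15.4%) and 0. HLA-C, TAP1, TNF and IER3 among them lie in the MHC. OAS3, an antiviral synthetase, was lower, at 6.48 to 7.27 CPM in CTCF-AID2 cells against 14.2 and 13.7 CPM in WT cells. After the GC adjustment described below each of these 3 lists had 2 higher members, and TAP1 was no longer called (0.84). In cholesterol synthesis 2 of 24 genes (8.33%) were higher, EBP and DHCR7, again near the background, with a list median of 0.35. DHCR7, the last reductase of the pathway, fell below 2-fold after the GC adjustment (0.76). Of 17 imprinted genes tested 2 (11.8%) were lower, the neighbors PEG10 and SGCE on chromosome 7, which share a promoter region. PEG10, a retrotransposon-derived gene expressed from the paternal allele, averaged 20.3 ± 1.03 CPM in CTCF-AID2 cells and 55.7 ± 0.28 CPM in WT cells (SD, n = 4 and 2), and SGCE, a sarcoglycan, had 3.31 to 3.87 CPM in CTCF-AID2 cells, against 8.47 and 7.82 CPM in WT cells. SGCE was no longer called after the GC adjustment (-0.83). Their reads can be shared where they overlap. Among clustered protocadherins, adhesion molecules whose alternative first exons are chosen with the help of CTCF, 4 of 10 were lower and 0 higher, with a list median of -0.78. These were PCDHGA9, PCDHGB6, PCDHGA10 and PCDHGB7, which are neighbors on chromosome 5 and share their last exons. All 4 held divided counts, and 0 of the 10 were in the single-copy set. PCDHGA10 had 0.285 to 0.582 CPM in CTCF-AID2 cells, against 2.36 and 1.89 CPM in WT cells (log2 -2.25 ± 0.29).

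A block of the short arm of chromosome 6 stood out. In an interval that starts at SCAND3, holds the MHC and was drawn after the values were seen, 76 of 130 tested genes (58.5%) were higher in CTCF-AID2 cells and 2 (1.54%) lower, against 6.39% and 3.36% of all genes. The median log2 fold change was 1.33. The edges were sharp: of the 20 tested genes before the interval 1 was higher (median -0.04), and of the 20 after it 2 were (median 0.25). Among the 65 genes of the interval with no repeated window and no divided count 37 (56.9%) were higher and 0 lower. The highest median over 41 neighboring genes was 1.77, inside this interval, and the highest outside it was 0.99.

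The MHC encodes the proteins that present peptides to T cells, with many unrelated genes between them. HLA-C, the heavy chain of a class I molecule, had 109, 103, 106 and 105 CPM in CTCF-AID2 cells, against 38.2 and 32.2 CPM in WT cells (log2 1.59 ± 0.07). Of 12 class II genes tested 5 (41.7%) were higher and 0 lower, against 58.5% and 1.54% of the whole interval, so class II genes did not stand out. Among the higher ones HLA-DOA, a chain of a class II chaperone, had 46.3 to 49.6 CPM in CTCF-AID2 cells, against 6.02 and 7.09 CPM in WT cells. HLA-DPB1 had 23.8 to 26.5 CPM in CTCF-AID2 cells, against 6.98 and 7.86 CPM in WT cells. Genes with no part in immunity moved as much. TUBB, a beta-tubulin, had 1827, 1760, 1720 and 1755 CPM in CTCF-AID2 cells, against 283 and 299 CPM in WT cells (log2 2.60 ± 0.04, limma adjusted p = 3.02e-15). PPP1R18, which binds protein phosphatase 1, had 68.1 to 72.1 CPM in CTCF-AID2 cells, against 7.56 and 7.72 CPM in WT cells (log2 3.18 ± 0.08). The transcription factor ZBTB22 averaged 11.8 ± 0.36 CPM in CTCF-AID2 cells and 0.0962 ± 0.0310 CPM in WT cells (SD, n = 4 and 2). BRD2, a reader of acetylated histones, averaged 181 ± 3.26 CPM in CTCF-AID2 cells and 65.8 ± 8.15 CPM in WT cells.

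**Figure D2:**
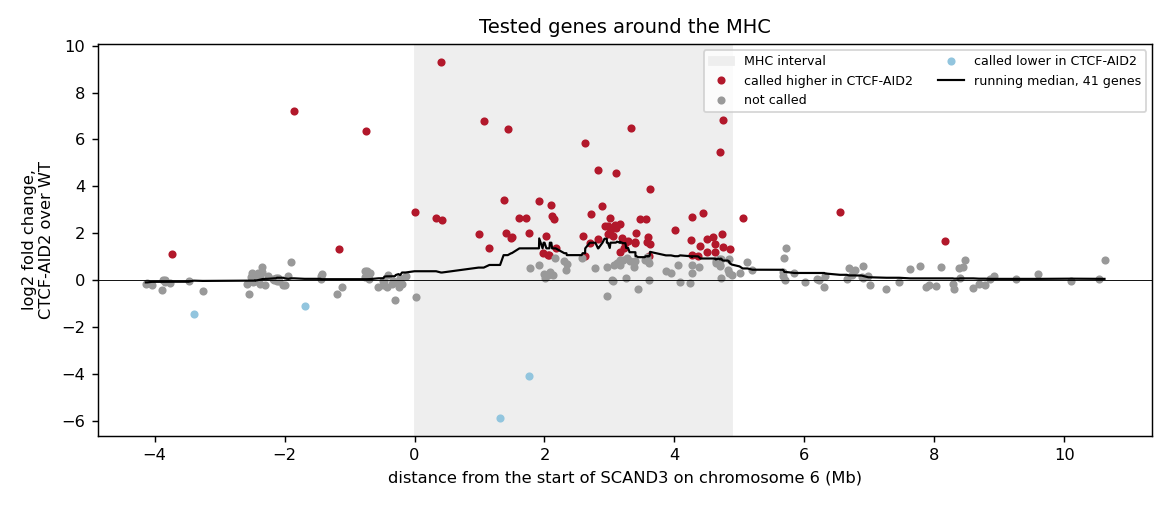
Log2 fold change (untreated CTCF-AID2 over untreated WT) of tested genes on chromosome 6 against distance in Mb from the start of SCAND3; each point is 1 gene and the shaded span is the interval that starts at SCAND3 and holds the MHC. Values inside the span, with a median of 1.33 over 130 genes, sit above the neighbors on either side, with medians of -0.04 and 0.25 over 20 genes each.

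In several of these genes the effective length differed too. The effective length was longer in CTCF-AID2 libraries by 1.27 log2 units for TUBB, 1.29 for HLA-DOA, 0.62 for PPP1R18 and 0.48 for BRD2, but by 0.03 for HLA-C and 0.00 for HLA-DPB1. The MHC is represented several times in full releases of GRCh37, on alternate haplotypes besides the primary chromosome. Which of these sequences each library was mapped to is not given in the sources used here, and the part of the reference in these differences was not tested. The 24 h WT libraries given auxin had TUBB at a mean of 252 CPM, and the 8 untreated 6 h libraries had 1782 to 1930 CPM, so the level went with the line and with the share of divided counts alike, and these cannot be told apart.

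Multicopy genes gave the largest fold changes of all. Genes with at least 80% of their windows repeated were higher in 110 of 263 cases (41.8%) and lower in 40 (15.2%), and genes with 20 to 80% repeated in 13.4% and 15.4%. Genes with divided counts were higher in 11.4% and lower in 5.66%, against 4.64% and 2.55% of genes without. Genes of multicopy or short non-coding biotypes were higher in 20.5% and lower in 12.5%, against 6.39% and 3.36% of all genes. Of 885 pseudogenes among them 160 were higher and 112 lower. Among the short RNAs 15 of 16 ribosomal, 9 of 25 small nuclear and 20 of 71 small nucleolar entries were higher, and 1, 3 and 2 of them lower. Many 5S ribosomal entries held equal values in every library, as did several U1 small nuclear entries. Their reads were divided between copies, so these are numbers of entries and not of separate genes.

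**Figure D3:**
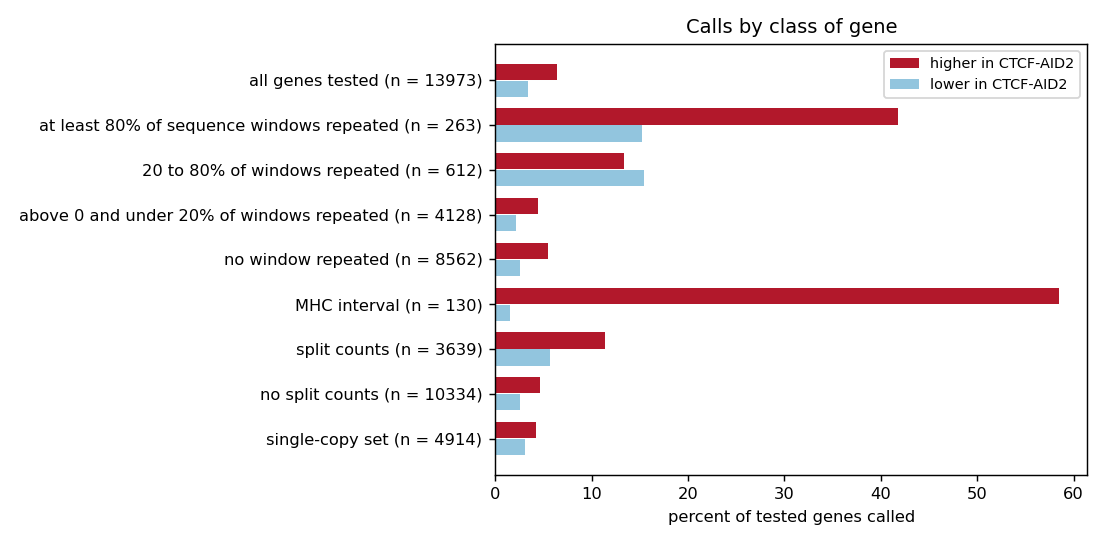
Percent of tested genes called higher or lower in untreated CTCF-AID2 cells than in untreated WT cells, by class of gene; bars start at 0. The MHC interval reached 58.5% higher and genes with at least 80% of windows repeated 41.8%, against 6.39% of all genes and 4.19% of the single-copy set.

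U1 small nuclear RNA, which recognizes 5′ splice sites, showed the pattern most clearly. RNU1-28P, RNU1-27P, RNU1-4 and RNU1-2 had 0 CPM in both WT libraries and means of 547, 536, 536 and 536 CPM in CTCF-AID2 cells. RNU1-1, which shares the window shown above with them, had 754, 458, 494 and 481 CPM in CTCF-AID2 cells, against 3054 and 3818 CPM in WT cells. Summed over all U1 entries the level was 3834 ± 1012 CPM in CTCF-AID2 cells and 3827 ± 635 CPM in WT cells (SD, n = 4 and 2), a log2 ratio of 0.00. The reads were thus spread over the copies in CTCF-AID2 libraries and given mostly to 1 copy in WT libraries, while their sum did not differ beyond the spread.

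Reads were placed differently in other families too. RN7SKP71, a copy of the 7SK RNA that holds back the elongation factor P-TEFb, averaged 0.0895 CPM in CTCF-AID2 cells and 783 CPM in WT cells, while the 7SK family summed to 45700 ± 2461 CPM in CTCF-AID2 cells and 46209 ± 449 CPM in WT cells (SD, n = 4 and 2). RN7SL5P, a copy of the RNA of the signal recognition particle, had 2.14 to 2.61 CPM in CTCF-AID2 cells, against 5569 and 10892 CPM in WT cells, and the family summed to 66300 ± 3108 CPM in CTCF-AID2 cells and 52218 ± 16183 CPM in WT cells (SD, n = 4 and 2). EEF1A1P5, a pseudogene of a translation elongation factor, was lower (log2 -1.27 ± 0.03), while EEF1A1 and its pseudogenes together had a log2 ratio of -0.01. RPS26P47 was at 0 CPM in CTCF-AID2 cells, against 8.66 and 9.08 CPM in WT cells. RPS26 with its pseudogenes summed to 173 ± 2.83 CPM in CTCF-AID2 cells and 211 ± 9.52 CPM in WT cells (SD, n = 4 and 2), a log2 ratio of -0.29 with no overlap between the lines, so this sum differed a little.

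Genes of the pseudoautosomal regions, which X and Y share, are entered more than once in the tables. VAMP7, a vesicle fusion protein, had 2 entries with equal values in CTCF-AID2 cells, at means of 24.1 and 24.1 CPM, and unequal ones in WT cells, at 2.17 and 59.7 CPM, so that one entry was called higher and the other lower. The sum was 48.3 ± 0.99 CPM in CTCF-AID2 cells and 61.9 ± 1.33 CPM in WT cells (SD, n = 4 and 2, log2 ratio -0.36). The log2 ratio of the sums was 0.33 for P2RY8, a receptor of B cells, and 0.47 for SLC25A6, a carrier of ADP and ATP. For IL9R, the interleukin 9 receptor, the sum itself stood apart, at 9.40 ± 0.43 CPM in CTCF-AID2 cells and 2.84 ± 0.00406 CPM in WT cells (SD, n = 4 and 2), a log2 ratio of 1.73. These entries are not X-linked single-copy genes and were outside the single-copy set.

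In some families the sum differed as well. The replication histones of chromosome 1 have near-identical copies: HIST2H2AA3 and HIST2H2AA4 together had 1178 to 1287 CPM in CTCF-AID2 cells, against 0.669 and 0.532 CPM in WT cells, and HIST2H4A and HIST2H4B together had 1095 to 1288 CPM in CTCF-AID2 cells, against 5.44 and 7.82 CPM in WT cells. The 3 HIST2H3 genes summed to 1615 ± 64.3 CPM in CTCF-AID2 cells and 774 ± 79.1 CPM in WT cells (SD, n = 4 and 2). Of 63 replication histones tested 6 (9.52%) were higher and 1 (1.59%) lower, against 6.39% and 3.36% of all genes, and the list median was 0.22. The 5S ribosomal RNA genes summed to 70.6 ± 39.3 CPM in CTCF-AID2 cells and 12.8 ± 0.94 CPM in WT cells, and SNORD3, the U3 small nucleolar RNA, summed to 17081 ± 2463 CPM in CTCF-AID2 cells and 9335 ± 4623 CPM in WT cells (SD, n = 4 and 2). For U3 the libraries varied widely within each line. Whether reads of these families were lost in WT libraries or made in excess in CTCF-AID2 cells was not tested.

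The number of exons and the effective length also went with the calls. Outside the MHC, among protein-coding genes with no repeated window, 13.5% of genes with 1 exon were higher in CTCF-AID2 cells, 9.72% of those with 2 exons, 4.70% of those with 3 to 8 and 3.44% of those with more. In the single-copy set, genes whose effective length differed by no more than 0.3 log2 units between the lines were higher in 2.87% and lower in 1.63%, and those that differed by more were higher in 12.5% and lower in 5.92%. Of the 139 genes whose effective length could not be computed, 29.5% were called higher and 45.3% lower. An effective length needed at least 20 reads in every library, so genes near 0 in 1 line entered this class by their difference. The shares of this class were thus set in part by that rule and say nothing about length.

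Base composition went with the fold change across all genes. Over 5 equal groups of genes, from the lowest exon GC content (up to 40.6%) to the highest (from 56.9%), the median log2 fold change was -0.30, -0.17, -0.01, 0.18 and 0.47. The share called higher was 1.55% in the lowest group and 15.5% in the highest. In the single-copy set 1.19% of the lowest and 11.1% of the highest group were called higher, and 4.25% of the lowest and 1.53% of the highest called lower. Once the median of each of 20 bins of GC content was set to 0 in every library, an adjustment chosen after the values were seen, 600 genes were higher and 422 lower of the 13568 with a GC content, against 849 and 443 of the same genes before it, and 561 and 382 were called both ways. In the single-copy set 114 genes were then higher and 144 lower, against 206 and 153, so the excess of rises was not kept. The MHC interval kept 70 genes higher with a median of 1.09, and X-linked single-copy genes 22 of 178 (12.4%), against 1.94% of autosomal ones. PDGFRB, a growth factor receptor called higher at 78.2 to 85.4 CPM in CTCF-AID2 cells against 37.1 and 34.3 CPM in WT cells, fell below 2-fold (log2 0.89), as did TCF4 (-0.93), RAG2 (-0.95) and CD9 (0.97).

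**Figure D4:**
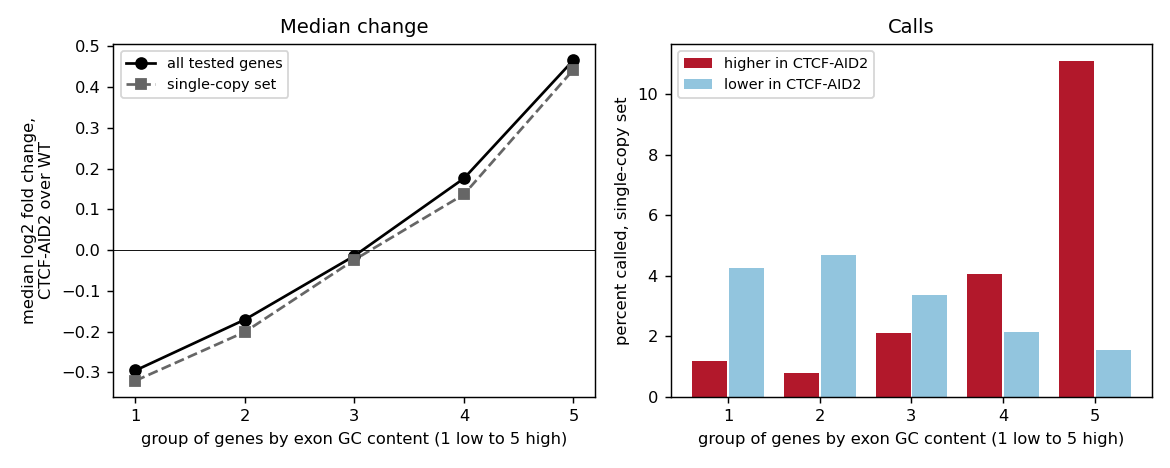
Median log2 fold change (untreated CTCF-AID2 over untreated WT) over all tested genes (solid) and the single-copy set (dashed), and percent of the single-copy set called higher or lower, in 5 equal groups of genes by exon GC content. The median over all tested genes climbs from -0.30 in the lowest group to 0.47 in the highest, and the share called higher from 1.19 to 11.1%.

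Chromosome arms were compared after the GC adjustment, because arms differ in base composition: before it their medians ran from -0.25 on 4q to 0.32 on 19p. Afterwards both arms of chromosome 18 stood above the rest, at medians of 0.27 for 18p and 0.24 for 18q, and the other 39 arms lay between -0.08 and 0.10. Of 192 tested genes on chromosome 18, 160 (83.3%) were above 0, with a median of 0.26 and quartiles of 0.10 and 0.41, against 48.8% of the genes on other chromosomes. In single untreated CTCF-AID2 libraries 18p lay between 0.23 and 0.28 and 18q between 0.23 and 0.27, while all other arms stayed between -0.10 and 0.12. The treated CTCF-AID2 libraries had 18p at 0.27 to 0.34 and 18q at 0.25 to 0.27, with other arms reaching 0.19. In the 16 libraries of the 6 h set, set against untreated WT, the values were lower, 0.05 to 0.16 for 18p and 0.11 to 0.20 for 18q, with other arms between -0.15 and 0.12. DNA copy number was not measured. TCF4 lies on chromosome 18 and was lower in CTCF-AID2 cells all the same.

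**Figure D5:**
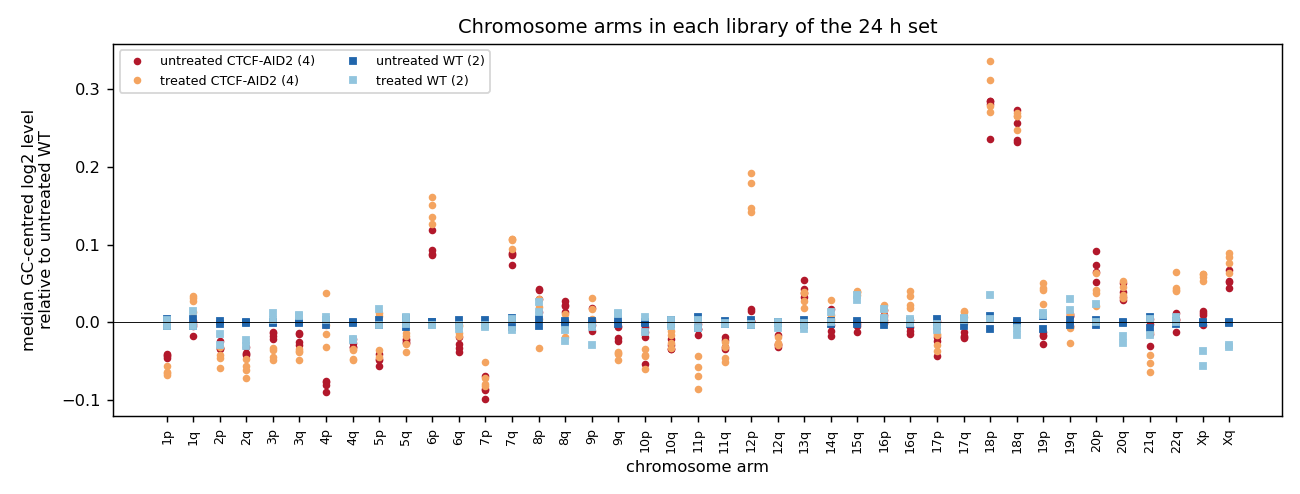
Median log2 difference from untreated WT, after adjustment for GC content, of each chromosome arm in each of the 12 libraries of the 24 h set; each point is 1 library. Both arms of chromosome 18 lie at 0.23 to 0.34 in all CTCF-AID2 libraries, untreated and treated, and close to 0 in WT libraries.

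The differences were then followed in libraries other than the 6 compared. The treated libraries of the 24 h set were part of the same fit and entered its filter and its shared estimate of spread. Between treated cells, CTCF-AID2 cells given 5-Ph-IAA against WT cells given IAA, 1175 genes (8.41%) were higher and 743 (5.32%) lower, 13.7% together. Of the 893 genes higher in untreated CTCF-AID2 cells 654 (73.2%) were also called higher between treated cells and 1 was called lower, and of the 470 lower genes 378 (80.4%) were called lower and 7 higher. The treated comparison also contains the loss of CTCF and the agents, 5-Ph-IAA in CTCF-AID2 cells and IAA in WT cells, to which the methods add doxycycline, so it does not repeat the untreated one. In the untreated libraries of the 6 h set, 761 of the 893 higher genes (85.2%) and 378 of the 470 lower genes (80.4%) had all 8 libraries on the side of CTCF-AID2 cells, 1 and 2 had all 8 on the side of WT cells, and the rest were mixed. These lines descend from CTCF-AID2 cells and carry a doxycycline-inducible CTCF transgene, with CTCF at 147 to 165 CPM in the 8 untreated libraries, and their libraries share the high share of divided counts, so this placement does not separate line from processing.

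Not every difference held in the other libraries. The fold change between the lines differed between treated and untreated cells (limma, test of the difference, at the same thresholds) in 77 of the 893 higher and 87 of the 470 lower genes. The share over all genes tested is not given here, so these counts do not show an excess. CEBPA, a myeloid transcription factor encoded by 1 exon, had 96.3 to 121 CPM in CTCF-AID2 cells, against 29.0 and 27.9 CPM in WT cells (log2 1.91 ± 0.10, limma adjusted p = 1.33e-09), but a median of 37.8 and a highest value of 47.3 CPM in the 8 untreated 6 h libraries, on the side of WT cells. Between treated cells its log2 fold change was 0.51, with means of 71.3 CPM in CTCF-AID2 cells and 49.8 CPM in WT cells. The counts of CEBPA were divided in all 6 libraries compared. Its rise in untreated cells was smaller after the GC adjustment but stayed above 2-fold. Of 10 myeloid markers tested, CEBPA was the only 1 called higher, and 1 was called lower. HIC1, a repressor of transcription, had 3.84 to 4.48 CPM in untreated CTCF-AID2 cells, against 0.501 and 0.335 CPM in WT cells, and 1.31 to 2.01 CPM in the 6 h libraries. ACOT9, a mitochondrial thioesterase on the X chromosome, averaged 0.145 ± 0.05 CPM in untreated CTCF-AID2 cells and 3.24 ± 0.12 CPM in untreated WT cells (SD, n = 4 and 2), whereas the treated cells averaged 4.28 CPM in CTCF-AID2 and 3.67 CPM in WT. The fold change between the lines differed between treated and untreated cells by 4.68 log2 units (limma adjusted p = 3.68e-08). TLR10 moved the other way: treated CTCF-AID2 cells averaged 0.329 CPM and treated WT cells 20.3 CPM, so the log2 fold change was -5.97 between treated cells and -2.54 between untreated ones.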

How the data were processed

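RNA-seq values of 28 SEM libraries were read from gene tables that the authors deposited, and 6 of them, 4 of untreated CTCF-AID2 and 2 of untreated WT cells, were compared. Per the methods and labels, the authors used Trim Galore 0.6.3 for trimming, STAR 2.7.9a for mapping to GRCh37 (hg19) and RSEM 1.3.1, with a Gencode annotation, for the expected counts per gene. The TPM and FPKM that the authors deposited beside them were normalized by RSEM for length and depth, and FPKM served to recover effective lengths. The labels name a 3′ kit, whereas the methods describe stranded total RNA after ribosomal RNA depletion, and whether counting used strand is not given in the sources used here, so overlapping and antisense genes are uncertain.

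Expected counts were rounded to whole numbers. Genes that exceeded 1 CPM in any of the 12 libraries of the 24 h set were fitted with limma 3.58.1 (voom, TMM factors from edgeR 4.0.16, R 4.3.3), with 1 mean per group over 4 groups that share 1 estimate of spread. Adjusted p-values are Benjamini-Hochberg values over all genes tested. CPM are scaled by TMM. Alternatives were edgeR's quasi-likelihood test, DESeq2 1.42.0, other scalings and filters, a replicate block, fewer libraries and a GC adjustment. The fit was tested on simulated data. Exon windows of 76 bases, taken every 25 bases, were searched in the primary GRCh37 assembly, and a count more than 0.005 from a whole number was taken as divided.

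Named genes were the 12 largest rises and 12 largest falls with whole counts, the 5 highest calls in each direction, the 6 largest changes with divided counts in each direction, CTCF, PPP1R12C, up to 4 members of each list or run of neighbors, and further genes chosen after their values were seen, among them SPR, CDH11, GPX7, ACOT9, HIC1, FAM199X, PIM2, TFE3, FMR1, TBC1D25 and PBDC1. The members, lists and classes were chosen with earlier results of these data known. The MHC interval, the repeat and single-copy classes, the X chromosome and the GC adjustment were taken up after the values of this comparison were seen. Some genes named by these rules are not reported here.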

Additional observations from a re-analysis of the deposited data

Results flagged for a closer look

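Among the 4 untreated CTCF-AID2 libraries, 1 library lay far from the other 3 for 13 of the named entries, by a rule that about 5% of groups meet by chance. Replicate 1 was the highest for RNU1-28P, RNVU1-18 and RNU1-1 (each 754 CPM), SNORD3A (20240 CPM), HIST2H3A (752 CPM), TRIM27 (169 CPM), HLA-DOA (49.6 CPM) and HLA-DPB1 (26.5 CPM), and the lowest for PEG10 (18.8 CPM). Replicate 1 also had the lowest share of counts in protein-coding genes (80.4%) and the highest in lincRNA genes (3.44%). Replicate 3 was the highest for both entries of VAMP7 (24.9 CPM each) and for HIST2H4B (28.5 CPM), and the lowest for ORAI1 (19.5 CPM), a calcium channel called higher in CTCF-AID2 cells. Without replicate 1 of CTCF-AID2 cells 1341 genes were called and 1306 of the 1363 calls were kept.

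The fold change between the lines differed between treated and untreated cells in 17 of the named genes (limma, test of the difference, adjusted p of at most 0.05 and 2-fold). No share over all genes tested is set beside this number, so it does not show an excess. The log2 difference was positive, so that treated CTCF-AID2 cells stood higher against treated WT cells than untreated ones did, for ACOT9 (4.68), ZNF223 (3.79), MAP7 (3.09), SLIT2 (2.23), B3GALT4 (2.20) and CD69 (1.10). MAP7, a microtubule-associated protein, averaged 39.1 CPM in treated CTCF-AID2 cells and 1.18 CPM in treated WT cells, and 6.15 CPM in untreated CTCF-AID2 cells and 1.59 CPM in untreated WT cells. It was negative for TLR10 (-3.43), HIC1 (-2.51), ARRB1 (-1.64), PCDHGA10 (-1.51), PCDHGB7 (-1.49), an IL9R entry (-1.45), CEBPA (-1.40), BBC3 (-1.36), PCDHGB6 (-1.32), ICAM5 (-1.26) and PCDHGA9 (-1.16). Agents and CTCF loss differ between these groups as well as the line. The 4 protocadherins were lower still in treated CTCF-AID2 cells, and the apoptosis gene BBC3 averaged 5.53 CPM in untreated CTCF-AID2 cells and 2.61 CPM in untreated WT cells, but 3.89 CPM in treated CTCF-AID2 cells and 4.71 CPM in treated WT cells.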

How the results depend on the processing

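The counts of called genes stayed within 1.5 times the reported values under edgeR's quasi-likelihood test (1373 genes), DESeq2 (1361), other scalings, a stricter filter, the 6 untreated libraries alone and the GC adjustment. With no filter on low counts 2984 genes were called, 1784 higher and 1200 lower, as 31692 genes were tested. Outside the MHC interval, repeated sequence and divided counts 508 were called, 312 higher and 196 lower, and in the single-copy set 359, 206 higher and 153 lower, as fewer genes were counted. With 1 library left out at a time 1339 to 1369 genes were called (874 to 908 higher, 454 to 469 lower), against 1808 to 1997 between treated cells. The numbers of libraries do not pair them (correlations of deviations -0.06 and -0.02), and with a replicate block 1355 genes were called.

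Signs turned for PPP1R12C (-0.16), BAK1 (-0.14) and CTCF (0.00886) after the GC adjustment, for HIST2H4B without CTCF-AID2 replicate 3 (-0.0382) and for the second SLC25A6 entry, at 0.00443 without WT replicate 1 and -0.183 without WT replicate 2. Of the 132 named entries 20 changed sign or lost their call somewhere, 17 of them after the GC adjustment. SNORD3A (0.74) and TAP1 (0.99) fell below 2-fold without WT replicate 1, and BBC3 (0.90) and DHCR7 (0.99) without WT replicate 2. With 2 WT libraries, leaving one out makes the other vary by assumption like the other groups.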

Other observations

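Other called genes lay next to each other outside the MHC. Of the runs of at least 4 neighboring tested genes called in the same direction, 1 lay on chromosome 12 (GRCh37 chr12:11060525-11324172). It held 5 entries of the bitter taste receptor family, TAS2R13, TAS2R14, TAS2R15, TAS2R20 and TAS2R19, with a median log2 fold change of 3.52. TAS2R15 is entered as a pseudogene and overlaps another tested gene on the same strand, so its reads can be shared. Its level was 1.24 to 1.86 CPM in CTCF-AID2 cells, against 0.0186 and 0.0197 CPM in WT cells. A run on chromosome 17 (chr17:39910856-40021676) went from JUP, the junction protein plakoglobin, at 156 to 162 CPM in CTCF-AID2 cells against 49.9 and 46.8 CPM in WT cells, to KLHL11, an adaptor of a ubiquitin ligase, at 28.0 to 29.3 CPM in CTCF-AID2 cells against 4.55 and 4.86 CPM in WT cells. On chromosome 9 (chr9:136271183-136344249) REXO4, ADAMTS13, CACFD1 and SLC2A6 were all higher (median 1.95), although SLC2A6 fell below 2-fold after the GC adjustment (0.52), and on chromosome 19 (chr19:54955985-55113846) LENG8-AS1, LENG8, LILRA2 and LILRA1 (median 1.71), the last a leukocyte immunoglobulin-like receptor in a family with alternate haplotypes. A run of 8 genes on chromosome 7 (median 1.77) lay in segmental duplications, and all 8 held divided counts.

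Other calls, most of them outside the single-copy set, were large as well. FAM101B had 140 to 146 CPM in CTCF-AID2 cells, against 10.7 and 11.4 CPM in WT cells, and PRDX2, a peroxiredoxin, had 33.9 to 38.1 CPM in CTCF-AID2 cells, against 2.19 and 1.71 CPM in WT cells. Their effective lengths differed by at most 0.01 log2 units. Of 15 mitochondrial transcripts tested MT-ND2 alone was called, at 58.6 to 76.3 CPM in CTCF-AID2 cells against 32.5 and 27.3 CPM in WT cells, with 35.9% of its windows repeated elsewhere in the genome. SCARNA12, a guide RNA of Cajal bodies, had 117 to 143 CPM in CTCF-AID2 cells, against 2.34 and 4.73 CPM in WT cells. SCARNA2, which is in the single-copy set, had 474 to 531 CPM in CTCF-AID2 cells, against 156 and 141 CPM in WT cells. The log2 fold change of SCARNA2 was 1.74 before the GC adjustment and 1.04 after it.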
